A study of Rattus norvegicus with 14 samples.

Results

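The organic ion and bile salt uptake transporters were taken as every gene whose symbol starts with Slco, Slc10a, Slc17a, Slc22a or Slc47a and that has an array probe annotated with that symbol alone. There were 46 such genes among the 14506 genes tested, of which 15 were liver-expressed, meaning a mean log2 expression over the 14 arrays of at least 6, and 31 were dim. By family these were 7 Slc10a genes (3 liver-expressed), 14 Slco genes (4), 8 Slc17a genes (5), 15 Slc22a genes (3) and 2 Slc47a genes (0). The members nearest to the minimum were Slc10a5 at 7.31 inside it and Slc10a3 at 5.67 outside it. The samples were livers of lean female Zucker rats about 15 weeks old, all carrying the fa allele in heterozygous form (fa/+), with 1 array per animal. Control rats (n = 7) ate a standard diet for 64 days, and extract rats (n = 7) ate the same diet to which 0.05% by weight of a rosemary extract had been added, 40% of the extract being carnosic acid, a phenolic diterpene. The comparison asks which liver transcripts differ between the diets after that period.

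Hepatocytes take bile salts, hormones and drugs from sinusoidal blood before they metabolise them and pass them into bile. NTCP, the product of Slc10a1, carries conjugated bile salts with sodium, and the organic anion transporting polypeptides (Slco genes) carry bulky anions without sodium. The Slc22a genes encode organic anion and organic cation transporters, the Slc47a genes encode MATE proteins that extrude cations, and the Slc17a genes encode a mixed family that includes anion and urate carriers, the lysosomal sialic acid exporter and vesicular glutamate carriers. Several members therefore do not act at the sinusoidal membrane, and a number of them are best known from kidney, gut or brain.

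Array medians over genes ran from 6.00 to 6.18, and the lowest correlation between any 2 arrays across genes was 0.984. In the weighting of arrays by limma, control rat 1 (weight 0.41) and extract rat 4 (0.46) counted least. Hepatocyte markers were present in every array, and limma called 0 of 16 of them (0 at an unadjusted p under 0.05, 0 by an unequal-variance test of single genes), with Ttr first (log2 fold -0.11, adjusted p = 0.396). Of 14 measured Kupffer cell and macrophage markers, 2 fell, Marco (log2 fold -0.73) and Vsig4 (-0.51), and 13 had a negative fold. An unadjusted p under 0.05 was found in 12. These include Cd14, the 1 marker with a positive fold (0.19, adjusted p = 0.172 in limma). Of the 14 markers, 1 passed the unequal-variance test. The log2 of their summed signal ranged from 13.05 to 13.35 in control rats and from 12.78 to 13.06 in extract rats. Vsig4 lost its call in 4 of 24 alternative settings. Of 10 stellate cell markers 1 fell (Pdgfrb, -0.37, a call lost in 15 of 24 settings) and of 8 bile duct markers 1 fell (Prom1, -2.22), while limma called 0 of 7 endothelial markers (2 at an unadjusted p under 0.05, 0 in the unequal-variance test), with Pecam1 first (-0.24, adjusted p = 0.203). All 7 endothelial markers had a negative fold (list median -0.14). Of the stellate markers 6 had a negative and 4 a positive fold (list median -0.14). The summed signal of stellate markers ranged from 10.69 to 10.88 in control and from 10.35 to 10.74 in extract rats, that of bile duct markers from 8.77 to 9.37 and from 7.80 to 8.52, and that of endothelial markers from 12.44 to 12.57 and from 11.97 to 12.60. In control rats the summed signal of bile duct markers was carried largely by Prom1, whose mean was 8.36 there and 6.14 in extract rats. All others had a mean below 6 over the 14 arrays, and 6 of the 8 markers had a positive fold (list median 0.14). Of 9 kidney tubule markers 8 had a mean below 6, and limma called 0 (1 at an unadjusted p under 0.05, 0 in the unequal-variance test), with Lrp2 first (-0.20, adjusted p = 0.332). Over all genes 3.15% were called in either direction, and 2154 of 14506 had an unadjusted p under 0.05 (1580 of 7383 with a mean of at least 6). Whether these marker shifts bear on the transporter values was not tested, and in bulk liver RNA fewer cells of a type and less RNA per cell cannot be told apart.

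Of the 46 uptake transporter genes, 5 rose with the extract, 0 fell and 41 did not pass (limma, Benjamini-Hochberg adjusted p under 0.05 over all genes). Folds were positive in 29 members and negative in 17, with a median log2 fold of 0.05. The 0 that fell is near the share of all genes called lower, 1.15%. Those that rose were Slc17a3, Slc17a1 and Slc17a5 of the Slc17a family, Slco1a4 of the Slco family, and the dim Slc22a8. All 5 rises were modest, between 1.31-fold and 1.67-fold. The share of members that rose, 10.9%, stood beside 2.00% of all genes called higher, 1.15% called lower and 3.15% called in either direction. Among liver-expressed members 4 of 15 rose, where 3.32% of all genes at or above the same minimum were called higher, and among dim members 1 of 31 rose, where the background was 0.632%. Beside the 0 members called lower, 2 members with a negative fold had an unadjusted p under 0.05 (Slc10a5 and Slc47a2), and the unequal-variance test also called 0 lower.

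**Figure D1:**
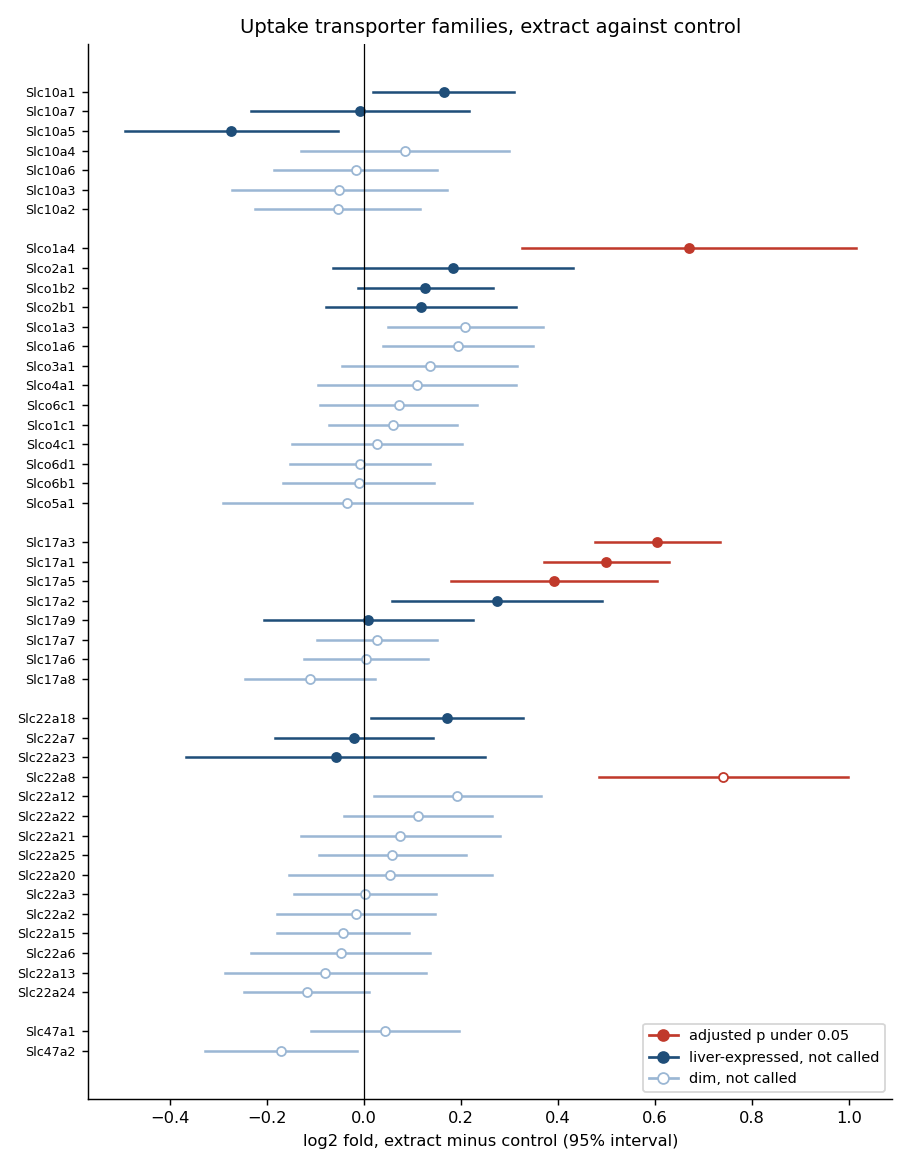
Log2 fold of each of the 46 transporter genes, extract minus control, with its 95% interval, by family and with liver-expressed genes (filled points) above dim genes (open points). The 5 genes called at an adjusted p under 0.05 are in red and all lie to the right of 0, from 0.39 for Slc17a5 to 0.74 for Slc22a8.

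The median log2 fold of the 15 liver-expressed members was 0.16, and 11 of them had a positive fold. Over all 7383 genes with a mean of at least 6 the median was -0.01. In dim members the median was 0.03 and 18 of 31 folds were positive. In 3 members every extract rat lay above every control rat (Slc17a3, Slc17a1 and Slc22a8), and in 0 members did every extract rat lie below. Over all genes 1.09% showed all extract rats above all controls, and 66 of 14506 showed all extract rats below all controls. The 0 among members is near that second share.

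Slc10a1, the sodium-dependent bile salt carrier NTCP, did not pass. Its log2 expression ran from 12.48 over a median of 12.59 to 12.81 in control rats, and from 12.65 over 12.79 to 12.93 in extract rats. The groups overlapped, although all 7 extract rats lay above the control median and 2 above every control. The log2 fold was 0.16 with a 95% interval of 0.02 to 0.31 (adjusted p = 0.257), so the interval reaches at most 1.24-fold. Slc10a5, a family member with no established substrate, had the lowest fold of all members, -0.27 ± 0.104 (SE, adjusted p = 0.205). It ran from 7.21 over 7.47 to 7.68 in control rats and from 6.64 over 7.26 to 7.35 in extract rats, and every extract rat lay below the control median. Slc10a7, which is not known as a bile salt carrier, was 8.08 ± 0.20 in control and 8.07 ± 0.23 in extract rats (SD, n = 7 each). It was the only member with more than 1 probe, and its other probe gave a log2 fold of 0.10 against -0.01 for the brighter one, neither passing. The 4 dim Slc10a genes, among them the ileal bile salt carrier Slc10a2 (3.94 and 3.89), had folds between -0.05 and 0.09. Of these, Slc10a4, a vesicular protein of neurons, had the smallest p (log2 fold 0.09, adjusted p = 0.778).

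Of the organic anion transporting polypeptides, 1 of 14 rose, where 2.00% of all genes were called higher. Slco1a4, which encodes Oatp1a4, a hepatic carrier of cardiac glycosides and other bulky compounds, ran from 9.75 over a median of 10.48 to 11.17 in control rats, and from 10.70 over 11.14 to 11.35 in extract rats. The groups overlapped: control rat 1 was highest among controls and lay within the extract range, extract rat 7 was lowest among extract rats, and 3 of 7 extract rats lay above every control. The rise was 1.59-fold (log2 fold 0.67 ± 0.164 SE, adjusted p = 0.0302). Slco1a4 had the largest spread among control rats of the 46 members (SD 0.45, against 0.22 in extract rats).

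The other liver-expressed Slco genes did not pass, all with positive folds. Slco1b2, the liver-specific Oatp1b2, was 12.41 ± 0.10 in control and 12.54 ± 0.11 in extract rats (SD, n = 7 each), a log2 fold of 0.13 with an interval of -0.01 to 0.27. Slco2b1, which encodes Oatp2b1, an uptake carrier of sulfated steroids, had a fold of 0.12 (interval -0.08 to 0.31). Slco2a1, the prostaglandin transporter, had 0.18 (interval -0.06 to 0.43), with control rat 1 alone at 11.03 below the other controls. The 10 dim Slco genes lay between -0.03 and 0.21. The largest of these folds were those of Slco1a3 (0.21, adjusted p = 0.176) and Slco1a6 (0.20, adjusted p = 0.195), which are Slco1a paralogues with means of 3.38 and 3.52. In Slco1a3, 4 of 7 extract rats lay above every control, and in Slco1a6, named after its value was seen, 1 did. How far the probes of these close paralogues separate the copies was not tested.

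The Slc17a family held 3 of the 5 rises: 3 of its 5 liver-expressed genes rose and 0 of its 3 dim genes. Over all genes, 3.32% with a mean of at least 6 and 0.632% with a mean below 6 were called higher. Of the 3 calls, that of Slc17a5 was lost in 12 of 24 alternative settings. Slc17a3, which encodes NPT4, a voltage-driven carrier of urate and organic anions, ran from 11.53 over a median of 11.71 to 11.83 in control rats. In extract rats it ran from 12.15 over 12.34 to 12.35, so that the groups did not overlap and 6 of 7 extract rats lay within a narrow band at the top. The rise was 1.52-fold (log2 fold 0.60 ± 0.061 SE, adjusted p = 9.45e-06). Slc17a1, which encodes NPT1, a phosphate and urate carrier of liver and kidney, ran from 10.19 over 10.28 to 10.35 in control and from 10.67 over 10.75 to 10.97 in extract rats, again without overlap. It rose 1.41-fold (log2 fold 0.50 ± 0.061 SE, adjusted p = 9.31e-05). The control rats of both genes varied little, with SDs of 0.10 and 0.06, where the median control SD of all genes with a mean of at least 6 was 0.20. That median covers genes of every level from 6 up. Among other bright members the control SD was 0.12 for Slc10a1, 0.10 for Slco1b2 and 0.26 for Slco2a1.

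Slc17a5, which encodes sialin, the lysosomal exporter of sialic acid, ran from 9.65 over 9.77 to 10.08 in control and from 9.81 over 10.17 to 10.49 in extract rats. Extract rats 4 and 1 lay within the control range and the other 5 above it. The rise was 1.31-fold (log2 fold 0.39 ± 0.101 SE, adjusted p = 0.0417). Slc17a2, which encodes NPT3, did not pass (log2 fold 0.27, interval 0.06 to 0.49, adjusted p = 0.195). Its control rats ran from 9.96 over 10.31 to 10.72 and its extract rats from 10.19 over 10.62 to 10.75, with control rat 1 highest and extract rat 7 lowest within their groups, as in Slco1a4. Slc17a9, the vesicular nucleotide carrier, was 9.14 ± 0.21 in control and 9.15 ± 0.20 in extract rats (SD, n = 7 each), with an interval of -0.21 to 0.22. The dim vesicular glutamate carriers Slc17a6, Slc17a7 and Slc17a8 had folds of 0.01, 0.03 and -0.11, the last with adjusted p = 0.452.

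**Figure D2:**
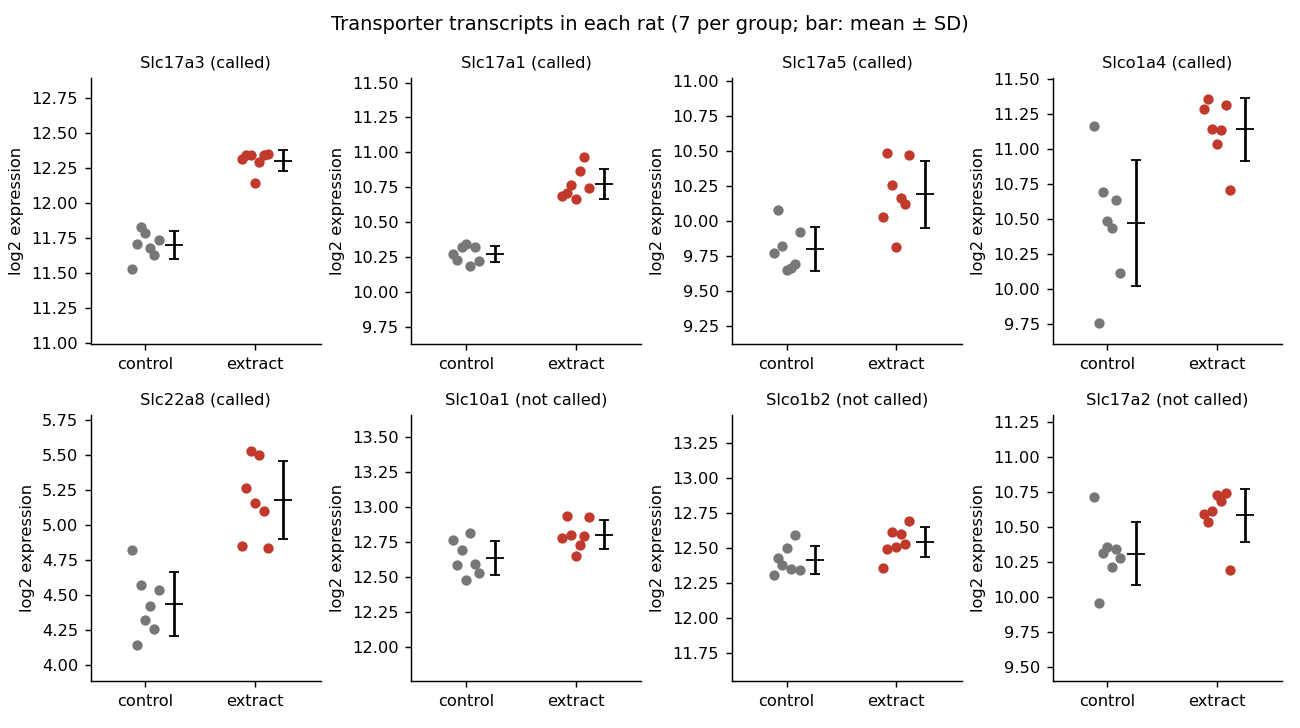
Log2 expression in each of 7 control (grey) and 7 extract (red) rats for the 5 transporters that rose and for Slc10a1, Slco1b2 and Slc17a2, which did not pass; bars give mean ± SD, and every panel spans the same log2 range around its own level. The groups are separate for Slc17a3, Slc17a1 and Slc22a8, and overlap in the other 5 panels.

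Since Slc17a1 and Slc17a3 rose together and are adjacent genes in RefSeq order, their promoters are shown with that of Slc22a8, the dim gene that rose (250 bases before to 50 after the annotated start, RefSeq, build GRCr8, 5′ to 3′ on the gene's strand). Capitals mark matches, on either strand, to any of 6 motifs. These were TGACNNNGC (the core of the antioxidant response element bound by NRF2) and AGTTCA and AGGTCA (each only a part of the sites of nuclear receptors such as CAR and PXR). The others were GTTAAT and TTAATNATT (parts of the site of the hepatocyte and kidney factor HNF1) and TATAAA (the TATA box). Slc17a1 lies at chr17:41681125-41681424 and Slc17a3 at chr17:41723060-41723359, both on the minus strand, and Slc22a8 at chr1:214927034-214927333 on the plus strand.
Slc17a1: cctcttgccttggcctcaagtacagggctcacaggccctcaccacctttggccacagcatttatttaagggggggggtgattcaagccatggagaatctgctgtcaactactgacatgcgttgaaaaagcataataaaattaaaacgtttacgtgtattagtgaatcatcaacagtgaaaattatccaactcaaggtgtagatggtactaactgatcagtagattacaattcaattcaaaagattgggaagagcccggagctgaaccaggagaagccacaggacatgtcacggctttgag
Slc17a3: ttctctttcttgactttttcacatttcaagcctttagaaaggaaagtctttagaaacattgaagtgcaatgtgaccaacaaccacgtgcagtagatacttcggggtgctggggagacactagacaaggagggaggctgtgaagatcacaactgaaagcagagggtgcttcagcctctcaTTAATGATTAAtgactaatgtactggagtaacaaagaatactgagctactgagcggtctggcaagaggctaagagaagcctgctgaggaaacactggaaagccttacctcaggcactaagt
Slc22a8: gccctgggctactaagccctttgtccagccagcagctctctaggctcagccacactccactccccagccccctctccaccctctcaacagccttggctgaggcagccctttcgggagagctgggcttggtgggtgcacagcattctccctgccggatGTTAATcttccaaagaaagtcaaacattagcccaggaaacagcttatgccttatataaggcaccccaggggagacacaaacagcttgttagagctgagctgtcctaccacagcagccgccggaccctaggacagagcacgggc

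In these windows Slc17a1 held 0 matches, Slc17a3 held TTAATNATT on both strands in overlapping positions that begin at -71 and -69 relative to the annotated start, and Slc22a8 held GTTAAT at -93. Promoters were given for 39 of the 46 members, including all 5 that rose. TTAATNATT, added after the sequences had been seen, was found in 2 of the 39 (5.13%, Slc17a3 and Slc10a2) and in 1.49% of 33469 promoters of the same length. Because it was chosen with these sequences in view, the first share cannot be weighed against the second. GTTAAT was found in 6 of 39 (15.4%) against 7.45%, and among the 5 that rose in Slc22a8 alone. TGACNNNGC was found in 5 members (12.8%) against 12.1% of all promoters, AGTTCA in 15.4% against 14.5%, AGGTCA in 17.9% against 16.2% and TATAAA in 10.3% against 14.2%, with 0 matches to these 4 in the genes that rose. A match describes letters in a window of 300 bases, and more distant sequence was not searched.

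Of the Slc22a family 1 of 15 genes rose, where 2.00% of all genes were called higher. Slc22a8, which encodes OAT3, an organic anion carrier best known from the kidney proximal tubule, ran from 4.14 over a median of 4.42 to 4.82 in control rats and from 4.84 over 5.16 to 5.53 in extract rats, with no overlap but almost no gap between the groups. It rose 1.67-fold (log2 fold 0.74 ± 0.122 SE, adjusted p = 0.00159), the largest fold among the members. All control values were under the array-wide probe median (5.02 to 5.15 over the arrays), as were extract rats 1 (4.85) and 7 (4.84). Extract rat 6 (5.10) lay within the range of these medians. Folds of probes near background can be too small. Of the 9 kidney tubule markers given above, 8 were dim as well and 0 were called. Among all genes with a mean below 6, 1.04% were called in either direction. The marker folds were positive in 6 and negative in 3. Whether they bear on the rise of Slc22a8 was not tested.

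The liver-expressed Slc22a genes did not pass. Slc22a7, which encodes OAT2, a liver carrier of small organic anions and nucleotides, was 8.94 ± 0.11 in control and 8.92 ± 0.16 in extract rats (SD, n = 7 each), with an interval of -0.18 to 0.14. Slc22a18, an imprinted gene with no established substrate, had a log2 fold of 0.17 (interval 0.01 to 0.33, adjusted p = 0.282), and all 7 extract rats lay above its control median. Slc22a23, an orphan member, had -0.06 (interval -0.37 to 0.25), with control rat 1 at 9.38 far below the other controls. Of the remaining dim members, the folds of 11 Slc22a genes lay between -0.12 and 0.19. These include the kidney carriers Slc22a6 (OAT1, log2 fold -0.05) and Slc22a12 (the urate carrier URAT1, 0.19, adjusted p = 0.268) and the organic cation carriers Slc22a2 (-0.02) and Slc22a3 (0.00). The MATE genes were both dim, at 3.67 for Slc47a1 and 4.23 for Slc47a2. Slc47a2 had a log2 fold of -0.17 (adjusted p = 0.282), with 5 of 7 extract rats below every control, and Slc47a1 of 0.04.

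The members that rose can be read beside the members next to them in RefSeq gene order, pairs that were chosen after the calls were known, so that no test of their difference is given. Slc17a1 and Slc17a3, which are adjacent, both rose, with log2 folds of 0.50 and 0.60. Slc17a2, on the other side of Slc17a3, had a log2 fold of 0.27 and did not pass. Beside Slco1a4 (0.67) lies Slco1b2 (0.13, not passing). Slc22a8 (0.74) lies between Slc22a25, an anion carrier gene (0.06), and Slc22a6 (-0.05), which are both dim and did not pass. Folds of probes at different signal are compressed to different degrees.

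**Figure D3:**
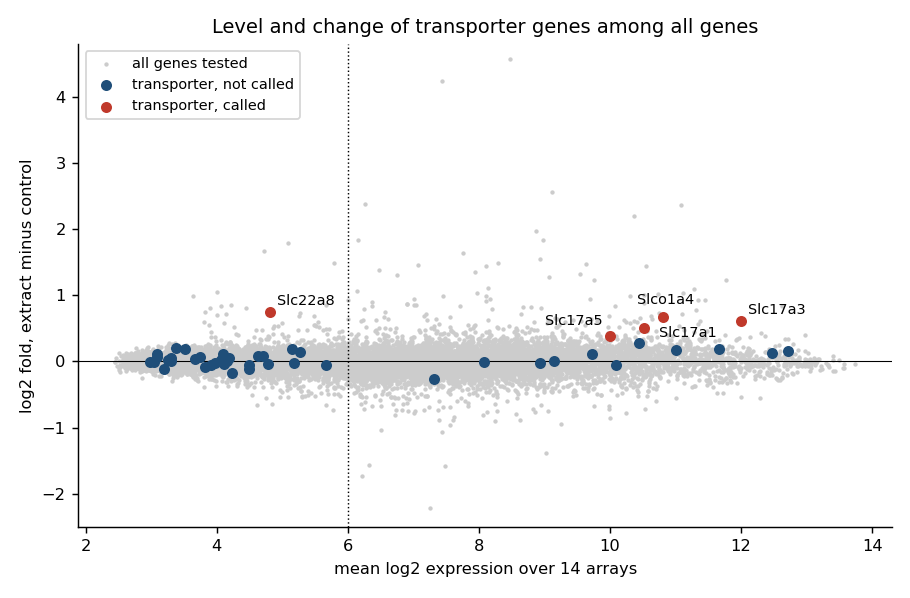
Mean log2 expression over 14 arrays (x axis) and log2 fold, extract minus control (y axis), for all 14506 genes (grey) and the 46 transporter genes (blue, or red where called); the dotted line is the minimum of 6. Of the red points 4 lie to the right of the line and Slc22a8 lies to its left, and the folds of all members stay between -0.27 and 0.74 while those of all genes span -2.22 to 4.57.

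Another 3 probes carried a family symbol together with other symbols and were not counted as members. The probe shared by Slco1a1 and Slco1a5 went from 5.61 ± 0.20 in control to 5.95 ± 0.16 in extract rats (SD, n = 7 each), a log2 fold of 0.34 (adjusted p = 0.105 over every probe of the table). The probe shared by Slc22a4, Slc22a5 and Slc22a21, carnitine and organic cation carriers, went from 7.91 ± 0.29 to 8.21 ± 0.19 (0.30, adjusted p = 0.322), and that shared by Slc22a17 and Efs from 6.81 ± 0.20 to 7.00 ± 0.13 (0.19, adjusted p = 0.430). All 3 folds were positive and 0 passed in limma, although the first and the second had an unadjusted p of 0.00244 and 0.0246.

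Genes that work with the uptake transporters were read from 4 lists. For comparison, 3.15% of all genes were called in either direction, and 5.19% of those with a mean of at least 6. An unadjusted p under 0.05 was found in 2154 of 14506 genes, and in 1580 of the 7383 with a mean of at least 6. Of 13 measured bile and conjugate exporters, 6 rose and 1 fell, and the list's median log2 fold was 0.22. Leading by p were Abcc3, which exports conjugates across the sinusoidal membrane (3.92-fold), Abcb1a, a drug exporter (2.16-fold), and the sterol exporters Abcg5 (3.11-fold) and Abcg8 (1.90-fold). The 1 that fell, named after its value was seen, was Abcg2, an exporter of sulfated and other conjugates (log2 fold -0.59, adjusted p = 0.00940). Of 19 transcription factors that act on transporter genes, 2 rose and 1 fell, with a median of -0.03. Nr1i3, the xenobiotic receptor CAR, rose 5.20-fold, from a mean of 5.08 in control rats to 7.45 in extract rats. Its control level is near the array-wide probe median (5.02 to 5.15 over the arrays). Nr0b2, the repressor SHP, rose 1.72-fold, while Nr1h3, the oxysterol receptor LXR alpha, fell (log2 fold -0.35). In bile acid synthesis and conjugation limma called 0 of 14 genes (2 at an unadjusted p under 0.05, 0 in the unequal-variance test), with Cyp7a1, the rate-limiting enzyme of the classical pathway, first (0.92, adjusted p = 0.167). Of 12 scaffold and membrane partners 1 rose, Atp1b1, a subunit of the sodium pump that maintains the gradient NTCP uses (1.29-fold, adjusted p = 0.0150). In the unequal-variance test Abcg2, Abcg5, Nr0b2, Nr1h3 and Atp1b1 lost their calls (adjusted p of 0.0520, 0.0659, 0.0783, 0.0581 and 0.0543), as did Abcc2, a canalicular conjugate exporter among the 6 that rose (0.0478 in limma, 0.119 in that test), and 4 exporters passed it.

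Of the 5 rises, those of Slc17a3, Slc17a1 and Slc22a8 passed in every alternative in which they were tested, including each array left out in turn. The adjusted p ranged from 1.42e-06 to 0.000807 for Slc17a3, from 3.05e-05 to 0.00272 for Slc17a1 and from 0.000362 to 0.0210 for Slc22a8, which the restriction to genes with a mean of at least 6 leaves out. The calls of Slco1a4 and Slc17a5 were close to the threshold. Leaving out any of control rats 4, 5 and 7 or of extract rats 1, 2, 3, 5 and 6 ended the call of Slco1a4 (0.0504 to 0.0722), as did the fit over every probe of the table (0.0667) and the unequal-variance test (0.149). Without control rat 1 its log2 fold was 0.79 (adjusted p = 0.00254). For Slc17a5 leaving out any of control rats 3 to 7 or of extract rats 2, 3, 5, 6 and 7 did so (0.0518 to 0.0996), as did the fit over every probe of the table (0.0807) and the unequal-variance test (0.123). Slc17a2 passed without control rat 1 (log2 fold 0.34, adjusted p = 0.0428) and with array weights (0.33, adjusted p = 0.0421), and Slco1a6 passed without control rat 1 (0.24, adjusted p = 0.0422). With control rat 1 and extract rat 4 both left out, an alternative chosen after seeing the data, the 5 calls were those of the full set.

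**Figure D4:**
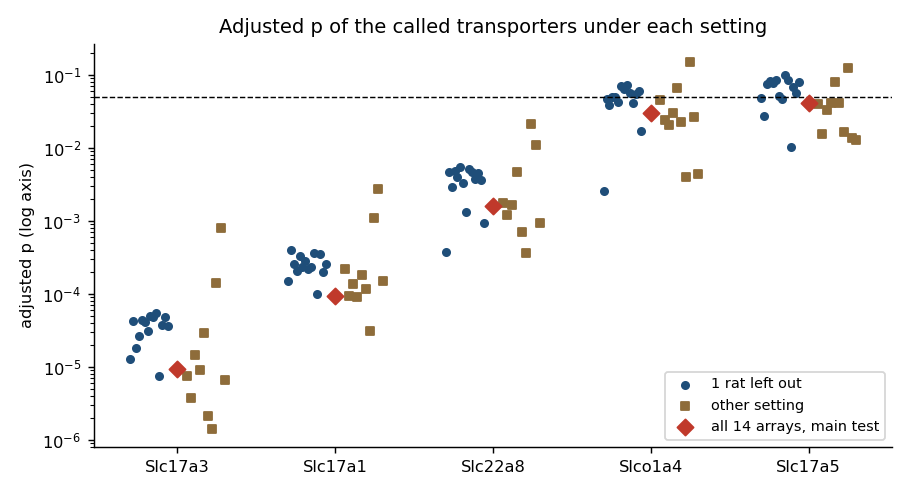
Adjusted p (log axis) of the 5 transporters that rose, with all 14 arrays (red diamond), with 1 rat left out (blue circles, 14 each) and under each other setting (brown squares); the dashed line is 0.05. All points of Slc17a3, Slc17a1 and Slc22a8 lie below the line, while those of Slco1a4 and Slc17a5 lie on both sides of it.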

How the data were processed

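Total liver RNA was labelled with a whole-transcript sense protocol and hybridised to Affymetrix arrays (1 for each rat), as the labels' protocols state. The authors deposited log2 values for 29215 probes, made with RMA in Affymetrix Expression Console 1.1.2, per the submitters' processing notes. Options and genome build are not given in the sources used here. The labels of the samples give the dose as 0.05%, the series title as 0.5%, and which of them holds was not settled here.

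Probes with exactly 1 symbol in GEO's platform annotation (15310) gave 14506 genes, each read from its probe with the highest mean over 14 arrays. Extract was compared with control by limma 3.58.1 (lmFit and eBayes, two-sided, no covariate) in R 4.3.3 with Benjamini-Hochberg adjustment over all genes. Each fold is given with the standard error or the 95% interval from that fit. The procedure was tested on simulated data. Recovery was required there only of changes larger than the rise of any member. Named genes were all liver-expressed or called members, the dim member of each family with the smallest p, and up to 4 called members (or the first) of each of 10 lists with 135 entries, of which 122 were measured. Other dim members are named outside this rule, for their known role or after their values were seen. Members and lists were chosen with earlier results of these data known. The number of arrays limits the precision.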

Additional observations from a re-analysis of the deposited data

Results flagged for a closer look

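For the 20 named members, each group of 7 was searched for a highest or lowest rat whose gap to its nearest neighbour exceeded Dixon's 95% critical share of the group's range, which chance alone gives in about 1 of 20 groups. Of 40 groups, 5 showed such a rat. Control rat 1 was lowest for Slco2a1 (11.03, next 11.53) and for Slc22a23 (9.38, next 10.10). Extract rat 4 was lowest for Slc17a3 (12.15, next 12.29) and for Slc10a5 (6.64, next 7.17). Extract rat 7 was lowest for Slc17a2 (10.19, next 10.54). Control rat 1 and extract rat 4 were also the arrays of lowest weight.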

How the results depend on the processing

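Over 24 alternatives, 20 named members gave 475 values, of which 428 kept direction and side of the threshold, 22 lost a call, 2 gained one and 23 changed sign. The count of transporters that rose was 3, and of liver-expressed ones 2, over every probe of the table and in the unequal-variance test, in place of 5 and 4. With 1 rat left out they ranged from 3 to 7 and from 2 to 5. The count that fell was 0 throughout. All genes called numbered 694 with array weights, 227 in the unequal-variance test and 326 to 621 with 1 rat left out, in place of 457. The median of liver-expressed members stayed between 0.11 and 0.20. Sign changes touched uncalled folds near 0. Slc17a9 was -0.0048 after repeated quantile normalization, -0.036 with array weights, -0.043 without both arrays of lowest weight and -0.039 to 0.056 with 1 rat left out. Slc10a7 was 0.027 after median centring, 0.048 as the mean of its probes, 0.017 without those arrays and -0.058 to 0.067 with 1 rat left out. Slc22a7 was 0.014 after median centring and -0.056 to 0.012 with 1 rat left out, and Slc22a23 -0.18 to 0.031. The cause was not tested.

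Rat numbers are shared by both groups, but the numbers were not taken to pair the samples: the deviations of same-numbered rats correlated from -0.46 to 0.28 over genes, above 0.1 in 4 of 7 pairs, and of the control rats only 6 and 7 correlated best with the extract rat of their own number. With the number as a replicate block 5 transporters rose and 364 genes were called. Probes near background, as in Slc22a8, limit what can be read from folds of dim genes.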
